A study of Mus musculus with 17 samples.

Results

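Whole hearts of female mice of the line labelled bsg were compared with hearts of female wild-type (WT) mice by RNA sequencing. The comparison used 9 of the 17 libraries of the study, 5 bsg and 4 WT, chosen by their genotype and sex labels. Only the 39032 autosomal genes of the deposited table entered it, of 41096 genes in all. The same comparison was then made without 2 libraries, WT female 2 and bsg female 2, which left 4 bsg and 3 WT libraries. Those 2 were set aside because they hold some transcripts at far higher levels than the other 7. The choice of the smaller set thus rests on measured values.

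The study compared both genotypes in both sexes, and the 8 male libraries (5 bsg and 3 WT) are used below only as a set of other hearts. All mice were 4 months old, on a C57BL/6 background, and none of the labels gives a treatment other than terminal isoflurane. The labels do not say what kind of allele bsg is, in which cells it acts or how many founders the line had. Total RNA of the frozen heart was depleted of ribosomal RNA and sequenced as stranded libraries.

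Genetic cardiomyopathies are inherited diseases of the heart muscle, in which the contractile cells weaken and can be replaced in part by fibrous tissue. Antioxidant enzymes, to which the title of the study refers, remove the reactive oxygen species that the densely packed mitochondria of heart muscle give off. A whole heart holds contractile cells, fibroblasts, vessels, blood cells and fat, so that fewer cells of a type and less RNA per cell of that type cannot be told apart in these libraries. The deposited table does not pair its gene IDs with names, and 0 of the IDs matched the name tables used here. Neither cell-type markers nor antioxidant genes could therefore be looked up, the heart label could not be checked against marker genes, and the genes below are given by place on the assembly C57BL_6NJ_v1, with the ID of 2 genes in each direction.

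The libraries held between 14598967 and 17554850 counted fragments. WT female 2 and bsg female 2 stood apart from the others of their groups. At least 1 fragment was found for 19425 autosomal genes in WT female 2 and for 18383 to 18441 in the other WT females. In bsg female 2 the number was 19880, against 18098 to 18570 in the other bsg females. Applying a minimum of 10 CPM (a gene's fragments scaled to a common library size) in both libraries and a median under 1 CPM in the other 7 gave 24 extra transcripts on 11 chromosomes. Their summed level was 1945 CPM in WT female 2 and 6191 CPM in bsg female 2, and 4.18 to 194 CPM in the other 7. The 194 CPM was that of WT female 4, which stayed in the smaller set, and the next highest was bsg female 3 at 21.1 CPM. In all of the other 7, 15 of the 24 were under 1 CPM. These levels chose the transcripts and are a description. Only 6 of the 24 were tested for a genotype difference with 9 libraries and 5 with 7, and 0 of these passed the threshold for a call used below. Their part in the other results was not tested, and results are given with and without the 2 libraries.

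In the 9 libraries, 106 of 13898 tested genes differed between bsg and WT, which is 0.763% of those tested (edgeR's quasi-likelihood test, Benjamini-Hochberg adjusted p under 0.05). Of these, 57 were higher in bsg (0.41% of tested genes) and 49 lower (0.353%). Without the 2 libraries, 93 of 13835 genes differed (0.672%), 47 higher (0.34%) and 46 lower (0.332%). At an unadjusted p under 0.05 the counts were 1787 genes with 9 libraries and 1893 with 7. The number of called genes moved with single libraries. Leaving out WT females 1, 2, 3 or 4 gave 40, 65, 47 and 63 genes with the 9 libraries. Leaving out bsg females 1, 3, 4 or 5 gave 39, 48, 61 and 54, while leaving out bsg female 2 alone raised the number to 158 (76 higher and 82 lower). With the 7 libraries the number was 59, 103 and 176 without WT females 1, 3 and 4. It was 49, 53, 51 and 66 without bsg females 1, 3, 4 and 5.

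Most changes called with 9 libraries were under 2-fold, whereas most of those called with 7 were at least 2-fold. Among the 106 genes called with 9 libraries, 72 differed by at least 1.5-fold, 41 by at least 2-fold (22 higher and 19 lower) and 17 by at least 4-fold (6 higher and 11 lower). Their median absolute log2 fold change was 0.77, beside 0.11 over all tested genes, whose median standard error was 0.107. With 7 libraries, 81 of the 93 called genes differed by at least 1.5-fold, 49 by at least 2-fold (22 higher and 27 lower) and 28 by at least 4-fold (8 higher and 20 lower), with a median of 1.03 beside 0.12 over all tested genes. The share of calls under 1.5-fold was thus lower with 7 libraries, 12 genes against 34. The common biological coefficient of variation fell from 0.171 with 9 libraries to 0.120 with 7, while the median standard error over all tested genes was larger, at 0.117, with 2 libraries fewer.

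The 2 genotypes did not separate on the leading axis of variation until the 2 libraries were removed. A principal component analysis of log2 CPM over the tested genes placed 38.6% of the variance of the 9 libraries on the first component. On it WT scores ran from -19.2 to 32.9 and bsg scores from -23.9 to 49.7, with WT female 2 and bsg female 2 holding the highest score of each group. The genotypes were apart on the second component, which carried 20.4% of the variance, with WT at 10.7 to 24.7 and bsg at -18.6 to -10.3. With 7 libraries the first component carried 33.9% and separated them, WT at 21.2 to 23.6 and bsg at -18.1 to -14.3. The separation was still there after all called genes were taken out of the matrix. On the second component of 9 libraries the WT scores were then 6.81 to 22.9 and the bsg scores -17.5 to -3.82, with 15.7% of the variance. For 7 libraries the first component then carried 27.8%, with WT at 11.002 to 24.8 and bsg at -20.4 to -6.30. The separation of groups by component scores is a description of these libraries, with no test.

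**Figure D1:**
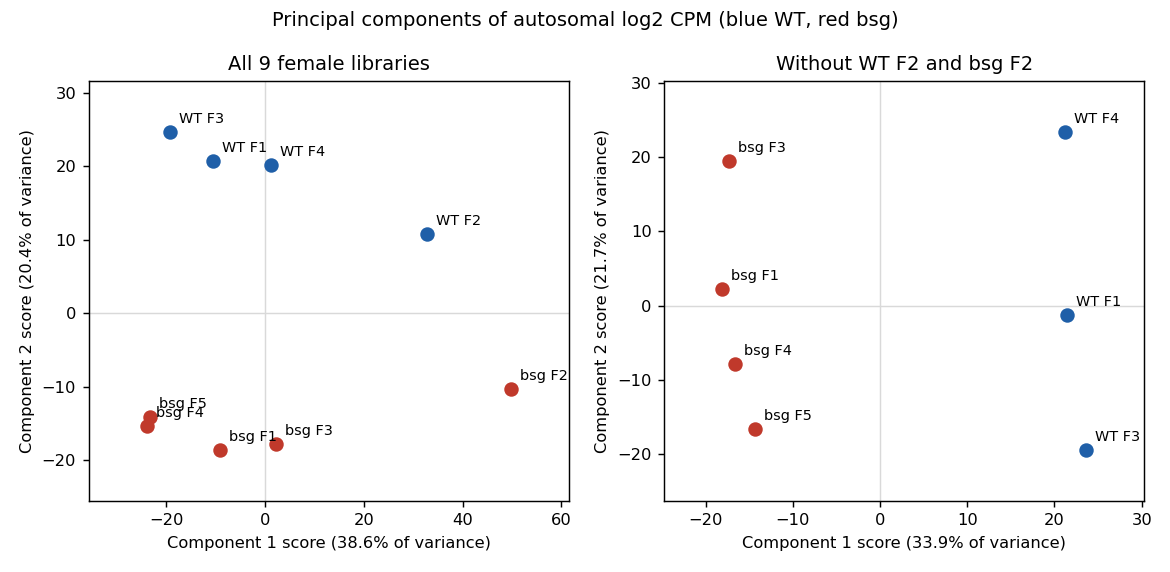
Principal component scores of the female libraries, from log2 CPM of the tested autosomal genes; each point is 1 library (blue WT, red bsg; F numbers are the replicates), and axis labels give the share of variance. On the left, WT F2 and bsg F2 lie to the right of their groups on component 1 (scores up to 49.7) and genotype lies on component 2; on the right, component 1 (33.9% of variance) parts the 3 WT from the 4 bsg libraries.

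Correlations of log2 CPM across genes were high throughout. For the 9 libraries the median Pearson r was 0.982 within WT, 0.986 within bsg and 0.980 between the genotypes. With the 7 libraries it was 0.987, 0.989 and 0.982. Genes within a library are not independent replicates, and these values have no test. The number of genes whose bsg and WT libraries did not overlap at all rose from 669 of 13898 (4.81%) with 9 libraries to 1736 of 13835 (12.5%) with 7, where fewer libraries leave fewer ways to overlap.

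Of the 106 genes called with 9 libraries, 65 were also called with 7 (35 higher and 30 lower in bsg), which is 61.3% of the 9-library list and 69.9% of the 7-library list. The 2 fits share 7 libraries, so this count says which calls remained and is no independent repeat. The other 41 calls were lost (22 higher and 19 lower), and 28 genes were called only without the 2 libraries (12 higher and 16 lower), 1 of which had been too low to test before. Among the 65 kept genes the median absolute log2 fold change was 1.02 with 9 libraries and 0.96 with 7, and both medians are the same when the 2 kept genes that had 0 counts in every WT female are set at their lower bounds. After the removal, 32 of the kept genes differed by at least 2-fold (18 higher and 14 lower) and 16 by at least 4-fold. Counts by fold, here and above, use fitted fold changes. For the kept gene without WT fragments on chromosome 6 the lower bound is 3.98-fold, just under the 4-fold mark.

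**Figure D2:**
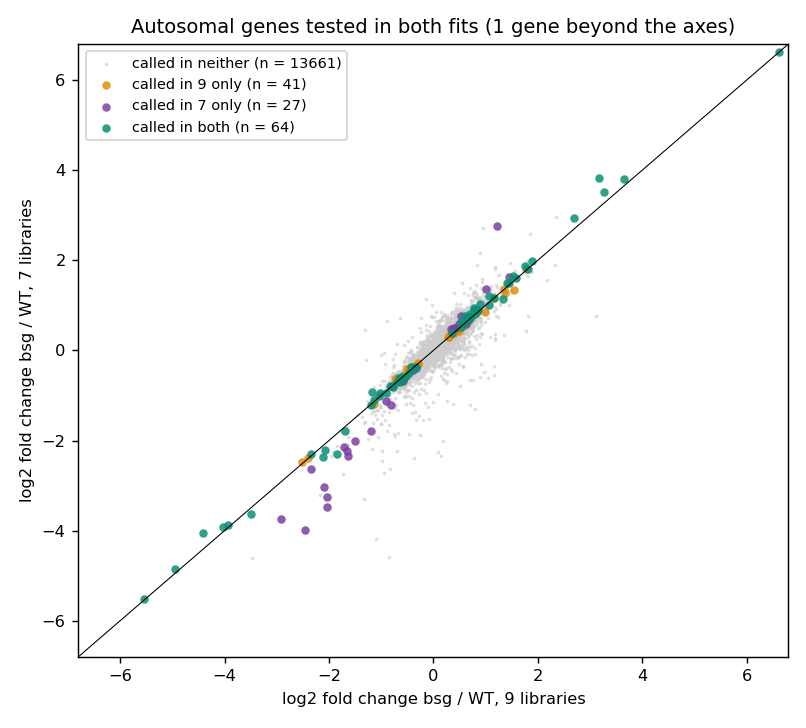
Log2 fold change (bsg over WT) of each tested autosomal gene with 9 libraries (horizontal axis) and with 7 (vertical axis); colours mark the genes called in both fits, in 1 of them or in neither, and the line marks equal values. The 2 fits share 7 libraries. Genes called in both (64 drawn, 1 beyond the axes) lie on or near the line, and the purple points below it at the left are genes whose decrease was larger without WT female 2 and bsg female 2.

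Adjoining genes on the minus strand of chromosome 5 moved in opposite directions by wide margins. The gene at 76655452 to 76681655 (6 exon blocks) had 0 fragments in each of the 4 WT libraries. In bsg females 1 to 5 it stood at 37.3, 35.4, 32.1, 29.2 and 41.0 CPM, a mean of 35.0 ± 4.55 CPM (SD, n = 5). Against a floor of 3 counts per WT library (0.1999 CPM on average) the bsg mean was at least 175-fold higher, with an adjusted p of 2.47e-06 with 9 libraries and 7.98e-06 with 7 (edgeR's quasi-likelihood test, Benjamini-Hochberg). Its neighbour at 76681878 to 76696974 went the other way. It stood at 243.6, 211, 249 and 243 CPM in WT females 1 to 4 and at 4.57, 4.33, 4.73, 6.17 and 5.66 CPM in bsg females 1 to 5. The log2 fold change was -5.54 ± 0.11 (SE) with 9 libraries and -5.53 ± 0.10 with 7, with adjusted p of 4.09e-10 and 2.21e-09. For both genes the bsg libraries lay far from the WT libraries, and removing 2 libraries moved neither value beyond its standard error. The other kept gene with 0 fragments in each WT female, a single exon block on chromosome 6 at 36672169 to 36672715, was much less abundant. It stood at 0.515, 0.731, 1.07, 0.729 and 0.933 CPM in bsg females 1 to 5, a mean of 0.795 ± 0.212 CPM (SD, n = 5), which is at least 3.98-fold higher than the same floor.

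Outside the chromosome 5 pair, the largest increase among kept genes with an average of at least 1 on the log2 CPM scale was that of MGP_C57BL6NJ_G0012235, a gene of a single exon block on the minus strand of chromosome 2 (177159089 to 177159584). Its level was 0.919, 2.00, 1.55 and 2.48 CPM in WT females 1 to 4 and 21.7, 17.7, 24.8, 22.7 and 22.1 CPM in bsg females 1 to 5. All 5 bsg hearts were far above all 4 WT hearts, and bsg female 2 was the lowest of the 5. Its log2 fold change was 3.64 ± 0.21 (SE; adjusted p = 1.65e-05) with 9 libraries and 3.79 ± 0.22 (adjusted p = 2.72e-05) with 7. The gene next to it on the same strand, MGP_C57BL6NJ_G0006203 (177160917 to 177164406, 3 exon blocks), moved with it. It stood at 0.787, 1.53, 0.941 and 1.27 CPM in WT females and at 10.7, 8.77, 11.9, 11.8 and 11.5 CPM in bsg females. Again bsg female 2 was the lowest bsg library, here beside the highest WT library, WT female 2, and the log2 fold change was 3.26 ± 0.20 with 9 libraries and 3.52 ± 0.17 with 7. Genes so close together on 1 strand can share fragments of a single transcript, which the counts do not show.

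Among the decreases, MGP_C57BL6NJ_G0028704 (chromosome 4, 49747444 to 49762423, minus strand, 10 exon blocks) held its value closely. It stood at 4.33, 9.27, 6.18 and 8.04 CPM in WT females 1 to 4 and at 0.386, 0.562, 0.267, 0.597 and 0.400 CPM in bsg females 1 to 5. The lowest WT heart was thus well above the highest bsg heart. The log2 fold change was -3.94 ± 0.29 (adjusted p = 6.13e-05) with 9 libraries and -3.87 ± 0.31 (adjusted p = 0.000296) with 7. MGP_C57BL6NJ_G0030950 (chromosome 6, 27615813 to 27629766, plus strand, 4 exon blocks) had a larger but looser decrease. Its WT libraries stood at 4.13, 12.1, 9.21 and 3.62 CPM and its bsg libraries at 0.0644, 0.337, 1.00, 0.133 and 0.133 CPM, with 1 to 15 fragments per bsg library. The groups did not overlap, but both were wide. Its log2 fold change was -4.42 ± 0.62 (adjusted p = 0.0094) with 9 libraries and -4.06 ± 0.62 (adjusted p = 0.0215) with 7. With 7 libraries the call ended without bsg female 1 (adjusted p = 0.0659), bsg female 4 (0.0729) or bsg female 5 (0.0541), and over all settings tried its adjusted p with 7 libraries ranged from 0.00128 to 0.11. With libraries summed by title number the call ended in both sets (adjusted p = 0.184 with 9 libraries and 0.0924 with 7).

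**Figure D3:**
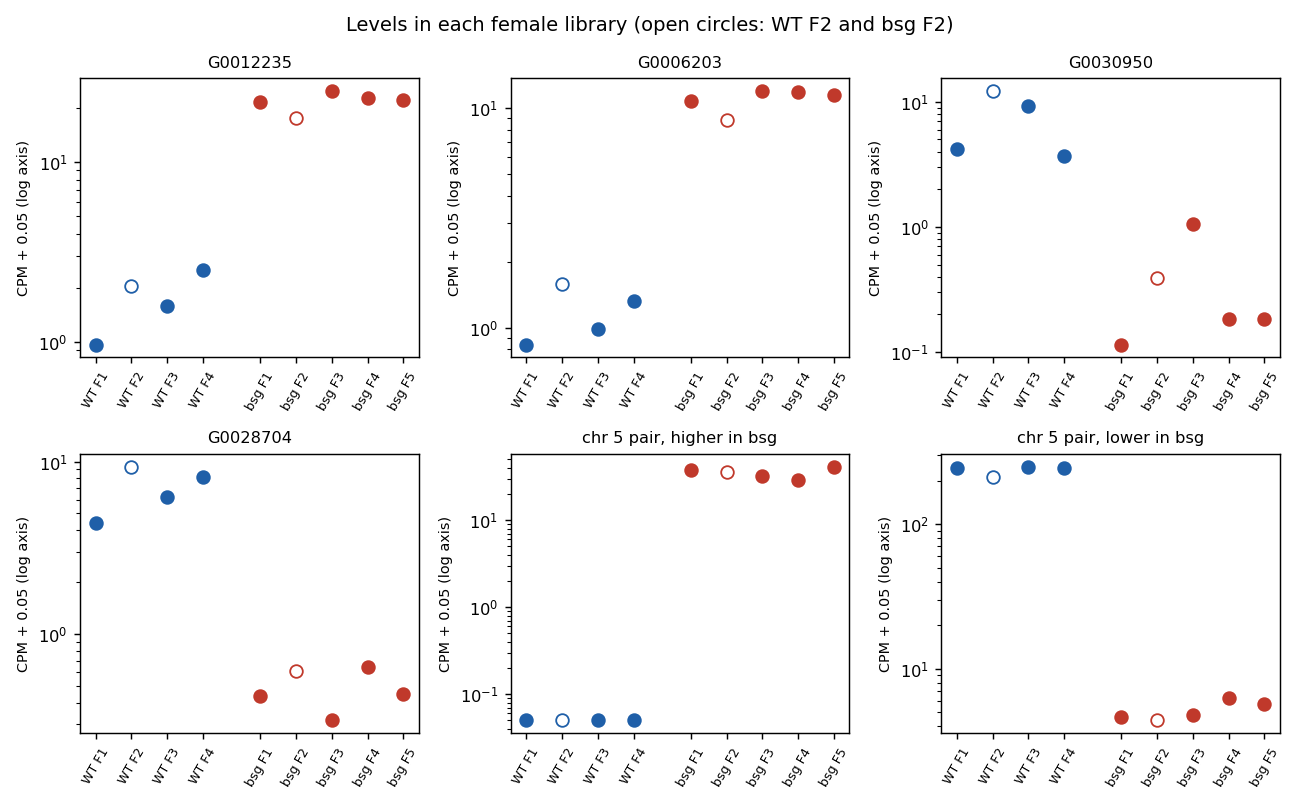
Level of 6 kept genes in each female library, as CPM plus 0.05 on a log axis (blue WT, red bsg; open circles are WT F2 and bsg F2); the gene at the lower middle had 0 counts in every WT library and is drawn at the offset. In all 6 panels the 5 bsg libraries lie wholly on 1 side of the 4 WT libraries, and the open circles lie with their own genotype.

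Kept changes were also found among abundant genes, and differed in size. The most abundant kept gene, chosen after its values were seen, lies on chromosome 5 at 110073259 to 110118178 (minus strand, 12 exon blocks). Its level was 410.0, 409, 498 and 440.3 CPM in WT females and 769.8, 636, 825, 666 and 723 CPM in bsg females, so that every bsg heart exceeded every WT heart. In log2 terms the difference was 0.72 ± 0.09 with 9 libraries and 0.74 ± 0.10 with 7 (adjusted p = 0.00689 and 0.00809). Where libraries of a group whose titles share a number were summed, its call ended in both sets (adjusted p = 0.0767 and 0.0744). Another abundant kept gene, on chromosome 11 at 106448583 to 106501656 and also chosen after its values were seen, fell from 249, 290.0, 199.8 and 572 CPM in WT females to 66.4, 113, 88.0, 57.02 and 53.1 CPM in bsg females. Its groups were apart, with WT female 4 the highest WT and bsg female 2 the highest bsg library, and the log2 fold change was -2.12 ± 0.32 with 9 libraries and -2.36 ± 0.32 with 7. In males the same gene stood at 67.2, 259.5 and 48.2 CPM in WT and at 101, 67.0, 59.9, 287 and 65.4 CPM in bsg, where the genotypes overlapped, with a log2 fold change of -0.10 (adjusted p = 0.964).

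The kept genes lay unevenly along the genome. Chromosomes 2, 4, 5 and 19, singled out with their counts known, held 40 of the 65 kept genes and 25.1% of the tested genes. Chromosome 5 had 15 of its 942 tested genes among them, chromosome 2 had 14 of 1152, chromosome 19 had 6 of 490 and chromosome 4 had 5 of 909. Elsewhere, chromosome 11 had 7 of 1202 and chromosome 6 had 6 of 769, and chromosomes 10, 14, 15, 16, 17 and 18 had none. Among bins of 10 Mb, the stretch from 170 to 180 Mb of chromosome 2 held 9 kept genes of 96 tested, that from 70 to 80 Mb of chromosome 5 held 6 of 39, those from 90 to 100 Mb of chromosome 5 and from 40 to 50 Mb of chromosome 4 held 4 each, of 47 and 103, and that from 40 to 50 Mb of chromosome 19 held 3 of 100. The 12 bins with at least 2 kept genes held 40 of the 65 kept genes and 7.30% of the tested genes. Another kept gene lay within 1 Mb for 25 of the 65, and within 100 kb for 14. Both directions occurred in the fullest bins, with 4 higher and 5 lower from 170 to 180 Mb of chromosome 2 and 3 of each from 70 to 80 Mb of chromosome 5, whereas the 3 on chromosome 19 from 40 to 50 Mb were all higher. Over whole chromosomes, chromosome 5 had 8 higher and 7 lower, and chromosome 2 had 4 higher and 10 lower.

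The kept genes differed in how far they depended on single hearts. When each library was left out in turn, in 9 fits of the larger and 7 of the smaller set, 24 of the 65 were called in all 16 fits (12 higher and 12 lower). Of these 24, 9 lay on chromosome 5 between 75100630 and 110118178, 6 on chromosome 2, 4 on chromosome 4 between 37751478 and 49762423, 4 on chromosome 19 between 28073628 and 43181246, and 1 on chromosome 9. Their median absolute log2 fold change with 7 libraries was 1.74, and the smallest was 0.62. For the 41 kept genes that were missed in at least 1 of the 16 fits the median was 0.90. The single chromosome 9 gene, at 106980330 to 107021783, fell by 0.66 on the log2 scale with 9 libraries and by 0.62 with 7. Where libraries of a group whose titles share a number were summed into 1 sample, 13 genes were called in both sets, all of them on chromosomes 2, 4, 5 and 19.

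Another 4 of the genes called in all 16 fits, chosen after their values were seen, show the range of levels. On chromosome 5, the gene at 75100630 to 75201676 stood at 7.09, 10.5, 9.21 and 7.04 CPM in WT females and at 28.1, 34.0, 27.0, 32.6 and 34.5 CPM in bsg females. On the same chromosome, the gene at 97507030 to 97510563 fell from 16.3, 18.4, 13.4 and 19.03 CPM in WT to 0.772, 2.14, 1.40, 1.66 and 1.40 CPM in bsg. Neither gene had a library of 1 genotype within the range of the other. On chromosome 19, the gene at 43154332 to 43181246 rose from 1.51, 2.53, 1.55 and 2.01 CPM in WT to 16.3, 10.01, 13.4, 11.01 and 10.99 CPM in bsg. On chromosome 4, the gene at 37751478 to 38058758 stood at 4.72, 3.00, 2.69 and 3.28 CPM in WT and at 0, 0.0562, 0.133, 0.0663 and 0.266 CPM in bsg. The log2 fold changes of the 4 genes with 7 libraries were 1.98, -3.62, 2.94 and -4.85.

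The 41 lost calls were mostly small changes whose size was about the same after the removal. Their median absolute log2 fold change was 0.51 with 9 libraries and 0.48 with 7, and 24 of them were under 1.5-fold with 9 libraries, against 10 of the 65 kept. With 7 libraries their adjusted p-values ran from 0.0512 to 0.115, of which 35 were under 0.1, and their unadjusted p-values from 0.000358 to 0.00288. The standard error was larger with 7 libraries for 38 of the 41, with a median of 0.115 against 0.0933 with 9. For none of the 41 did the ranges of the genotypes overlap, in either set. Over all tested genes the ranges did not overlap for 4.81% with 9 libraries and 12.5% with 7. A call itself favours genes whose groups are apart.

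Among lost genes with an average of at least 1 on the log2 CPM scale, the largest increase was that of a gene on chromosome 9 at 53106053 to 53112437 (minus strand). It stood at 2.43, 1.601, 0.672 and 1.41 CPM in WT females and at 4.18, 5.06, 6.07, 6.37 and 4.60 CPM in bsg females, and neither WT female 2 nor bsg female 2 lay outside the others of its group. The log2 fold change was 1.78 ± 0.30 with 9 libraries and 1.82 ± 0.34 with 7, while the adjusted p went from 0.0272 to 0.0512. For the largest decrease above that level, on chromosome 19 at 44834733 to 44849270 (plus strand), the levels were 79.9, 90.3, 79.4 and 141 CPM in WT and 42.7, 48.1, 59.3, 40.0 and 31.6 CPM in bsg. Here too the 2 libraries lay within their groups, and the log2 fold change was -1.14 ± 0.20 with 9 libraries and -1.20 ± 0.23 with 7 (adjusted p = 0.0322 and 0.0561). Lost decreases of genes under that average reached -2.51 with 9 libraries and -2.48 with 7. The most abundant lost gene, on chromosome 8 at 12870040 to 12942259 and chosen after its values were seen, stood at 1359, 1391, 1516 and 1227 CPM in WT and 2116, 1897, 1678, 2197 and 2634 CPM in bsg. Its groups did not overlap, and its log2 fold change was 0.62 ± 0.12 with 9 libraries and 0.67 ± 0.14 with 7 (adjusted p = 0.0499 and 0.0755). Over the settings tried with 9 libraries the adjusted p of these 3 genes reached 0.323, 0.334 and 0.215, each with libraries summed by title number. With 7 libraries, DESeq2 called 38 of the 41 lost genes, limma-voom with library weights 35, all groups fitted together 27 and no filter on low counts 23. These 3 genes were called in each of those settings. The other alternatives called 0 to 2 of the 41, and leaving out 1 library gave 1 to 6.

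The 28 gained calls were chosen by passing the threshold once the 2 libraries were removed, so that the place of those libraries among the others in these genes follows in part from the choice and is a description. Their median absolute log2 fold change was 1.00 with 9 libraries and 1.496 with 7, and their adjusted p-values with 9 libraries ran from 0.0504 to 0.588. With 9 libraries, 8 of the 28 had bsg and WT libraries that did not overlap, beside 4.81% of all tested genes. For 21 of the 28, bsg female 2 lay outside the other bsg hearts on the side of the WT hearts, while it lay within them for 4 and beyond them, away from WT, for 3. WT female 2 lay toward bsg for 10 of the 28 gained genes, within the WT range for 14 and away for 4.

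The gained calls included 13 genes that were lower in bsg by at least 2-fold, spread over 9 chromosomes. With 7 libraries their log2 fold changes ran from -3.98 to -1.13, with adjusted p from 0.00367 to 0.0483. With 9 libraries the log2 fold changes ran from -2.93 to -0.82, with adjusted p from 0.0529 to 0.32. In the larger set, edgeR called all 13 when bsg female 2 alone was left out and 0 when WT female 2 alone was left out. With all 9 libraries, limma-voom with library weights called 10 of the 13 and DESeq2 called 3. In all 13, bsg female 2 was above each of the other 4 bsg females, at 2.03 to 10.1 times (median 4.05 times) their median level, and bsg female 3 came next. WT female 4 was the highest WT library for 12 of them, and WT female 2 for 1. Both the level of bsg female 2 in these genes and their call without it follow from how they were chosen.

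The most abundant of the 13, chosen after its values were seen, lies on chromosome 19 at 44956723 to 44969981 (minus strand). It stood at 814, 2172, 1188 and 2515 CPM in WT females and at 161, 653, 181, 43.8 and 59.6 CPM in bsg females. Its hearts varied widely within each genotype, although the groups stayed apart. On the log2 scale bsg differed by -2.93 ± 0.71 (adjusted p = 0.111) with 9 libraries and -3.75 ± 0.53 (adjusted p = 0.0132) with 7. The largest gained decrease, on chromosome 3 at 136930382 to 137046029 (plus strand), went from -2.46 ± 0.75 (adjusted p = 0.198) to -3.98 ± 0.46 (adjusted p = 0.00374). Its levels were 60.2, 61.3, 44.8 and 129 CPM in WT and 6.82, 46.3, 8.06, 2.32 and 2.40 CPM in bsg, so that bsg female 2 alone lay within the WT range. Fitted with the spread shared by all 4 groups of the study, 1 of the 13 genes was still called, and for these 2 genes the adjusted p without the 2 libraries was then 0.127 and 0.0592. With libraries summed by title number edgeR called 0 of the 13 with 7 libraries, with adjusted p of 0.0817 and 0.0667 for these 2 genes.

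The largest gained increase with an average of at least 1 on the log2 CPM scale lies on chromosome 2 at 174017734 to 174041389 (minus strand). It stood at 0.591, 6.60, 0.874 and 0.603 CPM in WT females and at 2.00, 20.8, 2.87, 2.12 and 1.53 CPM in bsg females. Both WT female 2 and bsg female 2 were far above the rest of their groups, the WT library also above 4 of the 5 bsg libraries. Its average log2 CPM was 2.15 with 9 libraries and 0.70 with 7, so it passed the minimum average of 1 only with those 2 libraries counted. The log2 fold change was 1.44 ± 0.98 (adjusted p = 0.588) with 9 libraries and 1.62 ± 0.30 (adjusted p = 0.0499) with 7. Without bsg female 2 alone it was -0.03 with the larger set, and with 7 libraries the adjusted p ranged from 0.00705 to 0.17 over the settings and libraries left out.

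**Figure D4:**
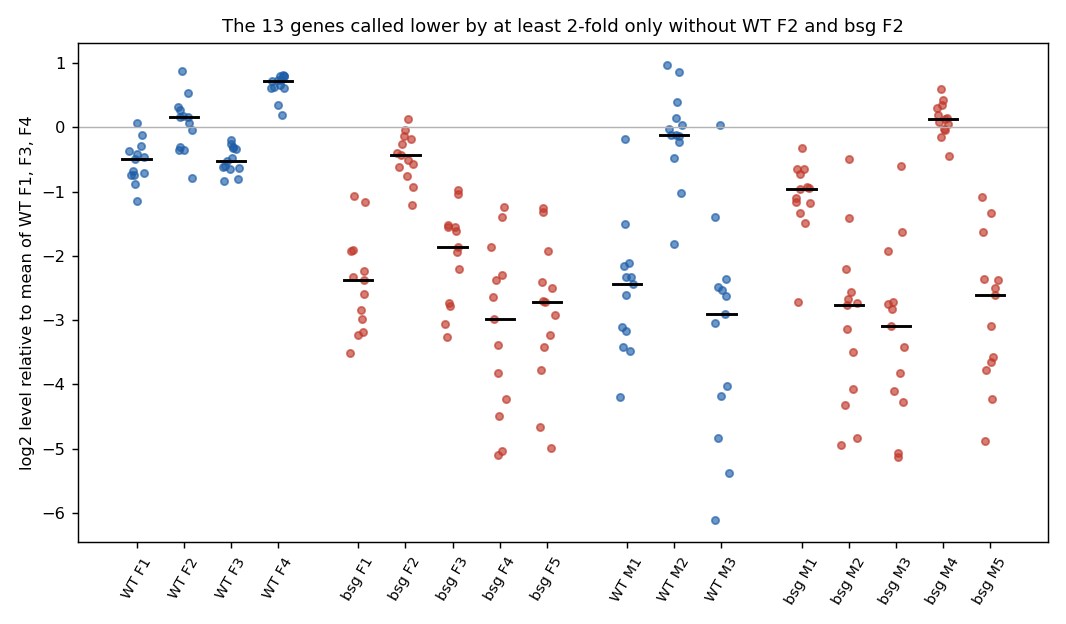
Level of the 13 genes called lower by at least 2-fold only without WT F2 and bsg F2, as log2 of the level relative to the mean of WT F1, F3 and F4; each dot is 1 gene, black bars are medians over the 13 genes, and columns are the 9 female (F) and 8 male (M) libraries (blue WT, red bsg). bsg F2 lies above the other bsg females, and among males WT M2 and bsg M4 lie above the others of their genotype.

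The 8 male libraries, which share no library with the females, were compared in the same way. In males 148 of 13918 tested genes were called, which is 1.06%, and the ranges of the genotypes did not overlap for 10.2% of tested genes. Of the 65 kept genes, 36 (55.4%) were called in males and 46 had male ranges that did not overlap. The male log2 fold change had the sign of the female one for 65 of 65, beside 60.4% of all genes tested with 9 libraries and 58.8% of those tested with 7. The lost calls shared the sign for 37 of the 40 tested in males, and 6 (15%) were called. The gained calls shared it for 18 of 28, and 2 (7.14%) were called.

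Within the kept genes, 31 of the 40 on chromosomes 2, 4, 5 and 19 were called in males, and 5 of the 25 on other autosomes, all 25 of which had the same sign in males. Those chromosomes were singled out with their counts known, so the split is a description. Of all their genes tested in both the 9 female libraries and the males, 76 of 3457 (2.20%) were called in males. Of the 24 kept genes called in every leave-one-out fit, 22 were called in males. The exceptions were the chromosome 9 gene, with a male log2 fold change of -0.41 (adjusted p = 0.133), and a chromosome 2 gene at 61981165 to 62109700, with -0.64 in the 9 female libraries, -0.70 in the 7 and -0.36 (adjusted p = 0.271) in males. The 4 genes given by ID had male log2 fold changes of 3.28 (MGP_C57BL6NJ_G0012235), 3.21 (MGP_C57BL6NJ_G0006203), -2.47 (MGP_C57BL6NJ_G0030950, adjusted p = 0.361) and -4.12 (MGP_C57BL6NJ_G0028704). The chromosome 5 gene without WT fragments in females had 0 to 0.0688 CPM in WT males and 31.5 to 37.6 CPM in bsg males, and its neighbour fell by 5.29 on the log2 scale.

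The 13 gained genes that were lower by at least 2-fold did not repeat in males. Their male log2 fold changes ran from -0.88 to 0.69, 6 of the 13 were lower in bsg, the ranges overlapped for all 13, and the adjusted p-values ran from 0.330 to 0.970, with 1 unadjusted p under 0.05. The male libraries were spread widely for these genes. WT male 2 was the highest WT male for all 13, and bsg male 4 the highest of all males for 9. Over all 13 genes, bsg male 4 stood at 1.601 to 24.1 times (median 8.16 times) the median of the other bsg males. The chromosome 19 gene stood at 167, 740.5 and 36.1 CPM in WT males 1 to 3 and at 537, 48.7, 44.8, 1554 and 80.2 CPM in bsg males 1 to 5, so that both genotypes covered the same range.

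A test of whether the genotype difference itself differed between the sexes (the interaction of genotype and sex in edgeR's quasi-likelihood test) called 0 of 14513 genes with all 17 libraries and 0 of 14293 without the 2 libraries. At an unadjusted p under 0.05 the numbers were 749 (5.16% of tested genes) and 1079 (7.55%), and the smallest adjusted p was 0.659 and 0.654. For the 13 gained genes the interaction had an unadjusted p under 0.05 in 2 with 17 libraries and in 7 with 15. The 13 were chosen by their difference in the same females, so these 2 counts follow in part from that choice and are a description. A difference between the sexes was therefore not shown for any gene at this number of hearts.

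**Figure D5:**
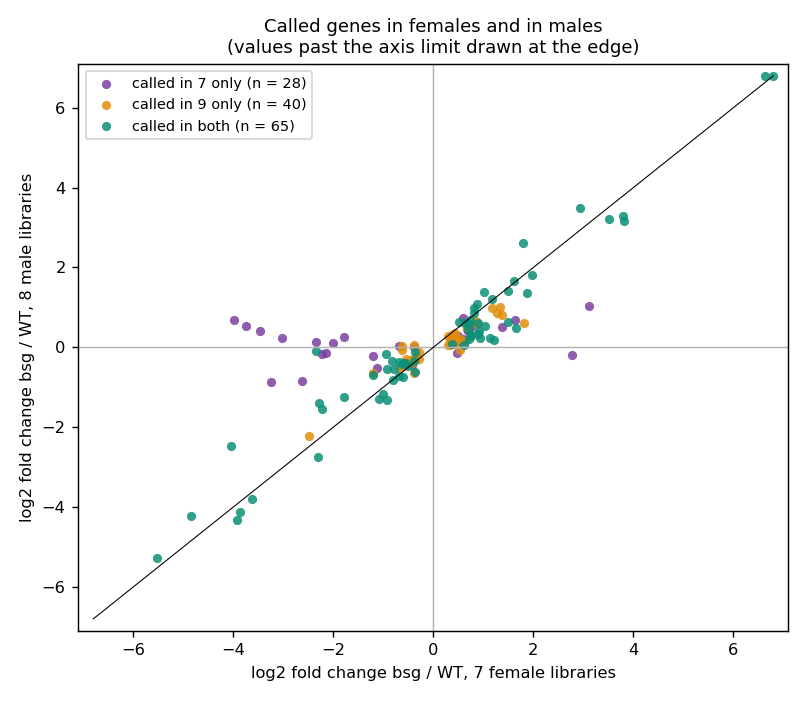
Log2 fold change (bsg over WT) of the called genes in the 7 female libraries (horizontal axis) and in the 8 male libraries (vertical axis), coloured by whether the call was made in both female fits or in 1; values past 6.8 are drawn at the edge and the diagonal marks equal values. The 65 kept genes all lie in the lower left or upper right of the plot, with the same sign on both axes, while several genes called only with 7 libraries lie near 0 in males.

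The kept genes were also described by their annotated structure. Median exonic length was 3593 bases for kept, 3271 for lost and 4879.5 for gained genes, beside 3729.5 over all tested genes, with a median of 10, 7, 10 and 9 exon blocks. Those kept and higher in bsg had a median of 6 exon blocks and 3020.0 bases, and those kept and lower a median of 14 blocks and 4665.5 bases, a difference that was not tested. A single exon block was annotated for 3 of the 65 kept genes, all of them higher in bsg, and for 781 (5.62%) of all tested genes. The average log2 CPM had a median of 4.25 among kept and 5.21 among lost genes, beside 4.33 over all tested genes.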

How the data were processed

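Total RNA of whole hearts was measured in 17 libraries, 9 of them female. The authors deposited unscaled counts of paired fragments for each gene. Per the file headers they came from featureCounts 1.6.2 (mapping quality at least 10, strand setting 2), with genes of Ensembl release 109 on C57BL_6NJ_v1. The submitters' processing notes also name Subread, DESeq2 and another genome build, while the table's coordinates are those of C57BL_6NJ_v1, which are used here. The aligner is not given in the sources used here. Of 41096 gene IDs, 0 matched the name tables, so the gene and marker lists drawn up for this comparison could not be applied.

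Groups follow the genotype and sex labels. The design text calls the samples biological replicates and gives fewer per group than the 5 bsg females used here. Some titles within a group carry a common number, which the labels do not explain, and no such number occurs in both genotypes, so whatever it marks cannot be told apart from genotype. WT females 1 to 4 carry 108, 109, 109 and 111, and bsg females 1 to 5 carry 205, 205, 207, 207 and 207. All 5 bsg females thus carry either 205 or 207. Summing by title number left only the samples 108, 109 and 111 in WT against 205 and 207 in bsg, with and without the libraries set aside. Calls made or lost in that setting rest on these few samples. No pair of female libraries agreed within sampling noise (chi-square per degree of freedom at least 8.74), so none was counted as a duplicate.

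Autosomal counts were filtered with edgeR's filterByExpr (minimum count 10, minimum total 15), scaled by TMM and tested with glmQLFit and glmQLFTest, two-sided, with p-values adjusted by Benjamini-Hochberg over all genes tested (edgeR 4.0.16, limma 3.58.1, R 4.3.3). Filter, scaling and spread were estimated anew for each set of libraries. The threshold for a call was an adjusted p of 0.05. Standard errors were taken as the absolute log2 fold change divided by the square root of the F statistic. Levels are CPM on TMM-scaled library sizes, and principal components used log2 CPM with a prior count of 2. Every number of exon blocks counts the exon stretches of a gene after overlapping exons were merged. The scripts were tested on simulated data.

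Named by ID were the 2 largest changes each way (7 libraries) among genes called in both sets, with average log2 CPM of at least 1 and groups that did not overlap, outside the chromosome 5 pair; lost and gained genes were taken by the same level minimum and are given by place. The comparison, its members and the lists were chosen with earlier results of these data known. Exact permutation of single values could not go below 0.0159 with 9 libraries and 0.0571 with 7, so calls rest on the spread shared across genes. Alternatives were other scalings and filters, DESeq2 1.42.0, limma-voom with and without library weights, the X chromosome included, all groups fitted together, libraries summed by title number, and each library left out.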

Additional observations from a re-analysis of the deposited data

Results flagged for a closer look

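Single libraries that lay far from the others of their group by Dixon's criterion were looked for in 39 sets of values, of which chance marks about 1 in 20. WT female 2 and bsg female 2 account for all 9 values marked. The number of autosomal genes detected was 19425 in WT female 2 and 19880 in bsg female 2, above the others of each group. The summed level of the extra transcripts was 1945 CPM in WT female 2, against 11.2 to 194 CPM in the other WT females. In bsg female 2 it was 6191 CPM, against 4.18 to 21.1 CPM. Those transcripts were defined by their levels in the same 2 libraries, so these 2 marks are fixed by that choice. The chromosome 5 gene that fell in bsg (76681878 to 76696974) stood at 211 CPM in WT female 2 and at 243 to 249 CPM in the other WT females, a small gap beside the bsg level. The gained gene on chromosome 2 (174017734 to 174041389) stood at 6.60 CPM in WT female 2 and at 20.8 CPM in bsg female 2. The gained gene on chromosome 3 (136930382 to 137046029) stood at 46.3 CPM in bsg female 2, and the most abundant gained and lower gene on chromosome 19 (44956723 to 44969981) at 653 CPM there, both above the other bsg females. Gained genes were chosen by calls made without WT female 2 and bsg female 2. The marks on them follow in part from that choice and are no independent evidence.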

How the results depend on the processing

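Against 106 genes called with 9 libraries (57 higher, 49 lower), 93 with 7 (47 and 46), 65 in both and 36 of these in males, the counts moved by over 1.5 times under 5 settings. Without a filter on low counts, 216 genes were called with 7 libraries (112 and 104). DESeq2 called 351 (193 and 158) with 9 and 412 (220 and 192) with 7, 242 in both and 89 also in males. With library weights in limma-voom, 335 (179 and 156) were called with 7 and 148 in both. With all groups fitted together there were 264 (150 and 114), 253 (130 and 123) and 180. With libraries summed by title number there were 13 (7 and 6), 18 (10 and 8), 13 and 13. Leaving out 1 library gave 39 to 158 calls with 9 libraries (20 to 76 higher, 18 to 82 lower), 49 to 176 with 7 (23 to 56 and 22 to 120), 32 to 56 in both and 23 to 35 also in males. With 7 libraries the split was 23 higher and 36 lower without WT female 1, 56 and 120 without WT female 4, and 40 and 26 without bsg female 5. The gained gene on chromosome 2 (174017734 to 174041389) reversed to -0.0284 in the larger set without bsg female 2, and single libraries moved it between -0.0284 and 3.09. Of 467 values of the named genes under alternatives, 397 kept direction and side of the threshold, 48 lost the call, 21 gained it and 1 reversed. The cause of these shifts was not tested. Counting depth limits genes near 0 fragments in 1 genotype, whose fold changes are bounds. No paired analysis was possible because replicate numbers follow accession order and no title number is shared between the genotypes.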
